A study of Mus musculus with 7 samples.

Results

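The genes described here are 39 mouse genes of DNA replication and S phase, taken by name: origin and licensing factors, the MCM helicase and its activators, polymerases, the sliding clamp and its loader, lagging strand enzymes, enzymes of nucleotide supply, and factors that copy chromatin at the fork. They were measured on 7 microarrays, each the only array of its group. Of the 39, 38 had a probe set on the table of 5 Sertoli and TM4 arrays, out of 18193 genes, and 36 had one on the table of 2 testis arrays, out of 8251 genes. Chaf1a was on the testis table only, Gins1, Pole and Tyms were on the other table only, and 35 genes were on both. The 7 groups were whole testis of wild-type and of ERM knockout mice at 4 weeks, primary Sertoli cells of wild-type mice at 4 weeks and of ERM knockout mice at 4 and 10 weeks, and TM4 cells with and without transfected ERM. ERM is an ETS family transcription factor encoded by Etv5, and TM4 is a mouse line of Sertoli origin. The title of the series names germ stem cell loss in mice lacking ERM as the subject. The sources used here do not give the strain, the deleted part of Etv5, how the Sertoli cells were isolated, or how many animals or cultures stand behind an array.

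Replication starts when the origin recognition complex, Cdc6 and Cdt1 load the MCM helicase onto DNA in G1, a step called licensing. Cdc45 and the GINS complex then switch the helicase on, and primase, the polymerases and the clamp Pcna copy the strands while ribonucleotide reductase and other enzymes supply nucleotides. Many of these genes are switched on together at the G1 to S boundary by E2F transcription factors. In the testis, dividing spermatogonia and germ cells about to enter meiosis pass through S phase, whereas Sertoli cells stop dividing before adulthood.

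The letters bound by E2F were looked for in the promoters, because many of the members are known targets of E2F. RefSeq promoter windows of build GRCm38.p6, running from 250 bases before to 50 bases after a gene's start, were found for 33 of the members, some with several starts, giving 40 windows. Gmnn, Gins1, Gins2, Pole, Prim2 and Mcm4 had no entry. A match to TTTCCCGC, TTTCGCGC, TTTGCCGC or TTTGGCGC on either strand, the 4 forms of the E2F motif searched, lay in 14 of 40 member windows (35.0%) and in 2.26% of all 32851 windows. The genes with a match were Cdc6, Cdt1, Orc1, Mcm3, Mcm5, Mcm6, Mcm7, Pola1, Pold1, Rfc3, Lig1, Hells, Uhrf1 and Dnmt1. The stretches printed below come from the members that were lowest on the 4-week Sertoli array labelled knockout within their role, among those with a match no further than 30 bases past the start. Each is written 5′ to 3′ on the strand of its gene, with E2F matches in capitals. The Cdc6 stretch lies at chr11:98907993-98908142 on the plus strand, with the match beginning 138 bases before the start. The Mcm5 stretch lies at chr8:75109336-75109485 on the plus strand and holds 2 overlapping matches on opposite strands, which begin 153 and 149 bases before the start. The Pola1 stretch lies at chrX:93632164-93632313 on the minus strand, with the match 138 bases before the start. The Rfc3 stretch lies at chr5:151651179-151651328 on the minus strand and holds 2 matches, one beginning 10 bases before the start and the other at the start itself. The Hells stretch lies at chr19:38930870-38931019 on the plus strand, with the match 62 bases before the start.
Cdc6: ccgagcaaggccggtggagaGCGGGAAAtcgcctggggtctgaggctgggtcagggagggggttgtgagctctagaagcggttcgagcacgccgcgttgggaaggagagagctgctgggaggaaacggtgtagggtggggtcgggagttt
Mcm5: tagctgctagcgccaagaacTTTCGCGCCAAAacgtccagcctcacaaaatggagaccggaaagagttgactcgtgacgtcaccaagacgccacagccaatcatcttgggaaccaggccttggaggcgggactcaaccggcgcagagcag
Pola1: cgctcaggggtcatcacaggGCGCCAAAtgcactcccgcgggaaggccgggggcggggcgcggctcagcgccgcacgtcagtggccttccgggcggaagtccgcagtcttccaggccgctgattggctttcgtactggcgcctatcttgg
Rfc3: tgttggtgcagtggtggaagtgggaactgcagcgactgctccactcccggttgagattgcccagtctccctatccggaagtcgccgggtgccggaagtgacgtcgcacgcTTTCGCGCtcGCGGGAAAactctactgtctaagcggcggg
Hells: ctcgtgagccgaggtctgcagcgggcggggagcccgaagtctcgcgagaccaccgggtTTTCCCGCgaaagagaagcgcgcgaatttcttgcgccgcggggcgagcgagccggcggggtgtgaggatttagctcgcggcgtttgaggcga

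Other letters were searched in the same windows. CCGGAAG, the core bound by many ETS factors, lay in 10 member windows (25%) and in 8.86% of all windows, and the genes were Orc1, Mcm10, Pola1, Prim1, Rfc3, Rfc4, Rfc5, Rpa2, Tyms and Chaf1b. CCAAT lay in 22 member windows (55.0%) against 37.4% of all windows, and TTTGAA, the core of the CHR element of late cell cycle genes, in 5 (12.5%) against 17.9%. Member windows had a median GC content of 59.8% against 52.7% over all windows, and the part of base composition in these shares was not tested. A match is a run of letters and not a measured binding site.

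All intensities below were scaled so that the trimmed mean of each array was 500, and a reading under 100 was treated as the floor. A ratio with 1 reading below the floor is given as a bound. With 1 array in each group there was no replicate, no test and no error between animals or cultures, and differences of at least 2-fold are counted. The only spread available was between probe sets of one gene, with a standard deviation in log2 units of 0.25 for the testis pair, 0.20 for the 4-week Sertoli pair and 0.15 for the TM4 pair. The array labelled Sertoli knockout at 4 weeks differed from the others in its 18S ribosomal RNA controls. The 5′ control read 4551 there against 236 to 352 on the other 4 arrays. The middle one read 3037 against 297 to 368, and the 3′ one 1966 against 487 to 666. Etv5 was lower on neither Sertoli array labelled knockout by any of its 3 probe sets. The brightest read 710 on the wild-type array, 910 on the knockout array at 4 weeks and 995 at 10 weeks. Whether those probe sets lie in the deleted part is not known here, so every direction given for these arrays rests on their labels, and no probe set of the testis table used here was assigned to Etv5.

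Replication genes were mostly lower on the 4-week Sertoli array labelled knockout than on the wild-type array. Of 38 members, 31 had a ratio below 0 and the median log2 ratio was -0.35, against -0.02 over all 15860 genes. The 6 members at least 2-fold lower were Mcm2, Mcm5, Mcm6, Cdt1, Dck and Hells, which is 15.8% of the members against 3.18% of all genes, and none was 2-fold higher (0.681% of all genes). With the mean over probe sets 2 of these 6, Mcm2 and Dck, remained 2-fold lower. Without probe sets that carry a suffix letter (a, f, g, i, r, s or x) in their name, Mcm6 and Hells did, and Dck had no value. In none of the 6 did every probe set reach 2-fold. On the array labelled knockout at 10 weeks, 11 of 38 members (28.9%) were at least 2-fold lower than on the same wild-type array, against 4.22% of all genes, and none was higher by that much (1.62% of all genes). These were Mcm2, Mcm5, Mcm6, Gins1, Lig1, Rrm2, Dut, Dck, Hells, Uhrf1 and Gmnn, and the median was -0.38 against -0.03. Of these 11, 7 remained 2-fold lower without probe sets that carry a suffix letter, and 7 with a floor at 0.4 of the trimmed mean. Both comparisons share the wild-type array, and in the second the genotype and the age cannot be told apart. In tissue or in mixed cells, fewer cells in S phase and less RNA per cell cannot be told apart either.

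The wild-type array read above both arrays labelled knockout for 27 of the 38 members (71.1%), a pattern found for 33.3% of all genes. The exceptions were Cdc45, Gins2, Orc6, Rfc5, Pola1, Pola2, Pold1, Fen1, Tk1, Dnmt1 and Chaf1b. TM4 cells stood apart from all of these: both TM4 arrays read above all 3 Sertoli arrays for 35 members (92.1%), against 40.6% of all genes, the exceptions being Cdc45, Fen1 and Tyms. In the values that follow, the TM4 arrays are given without and then with ERM, and the Sertoli arrays as wild type at 4 weeks and then those labelled knockout at 4 and at 10 weeks.

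**Figure D1:**
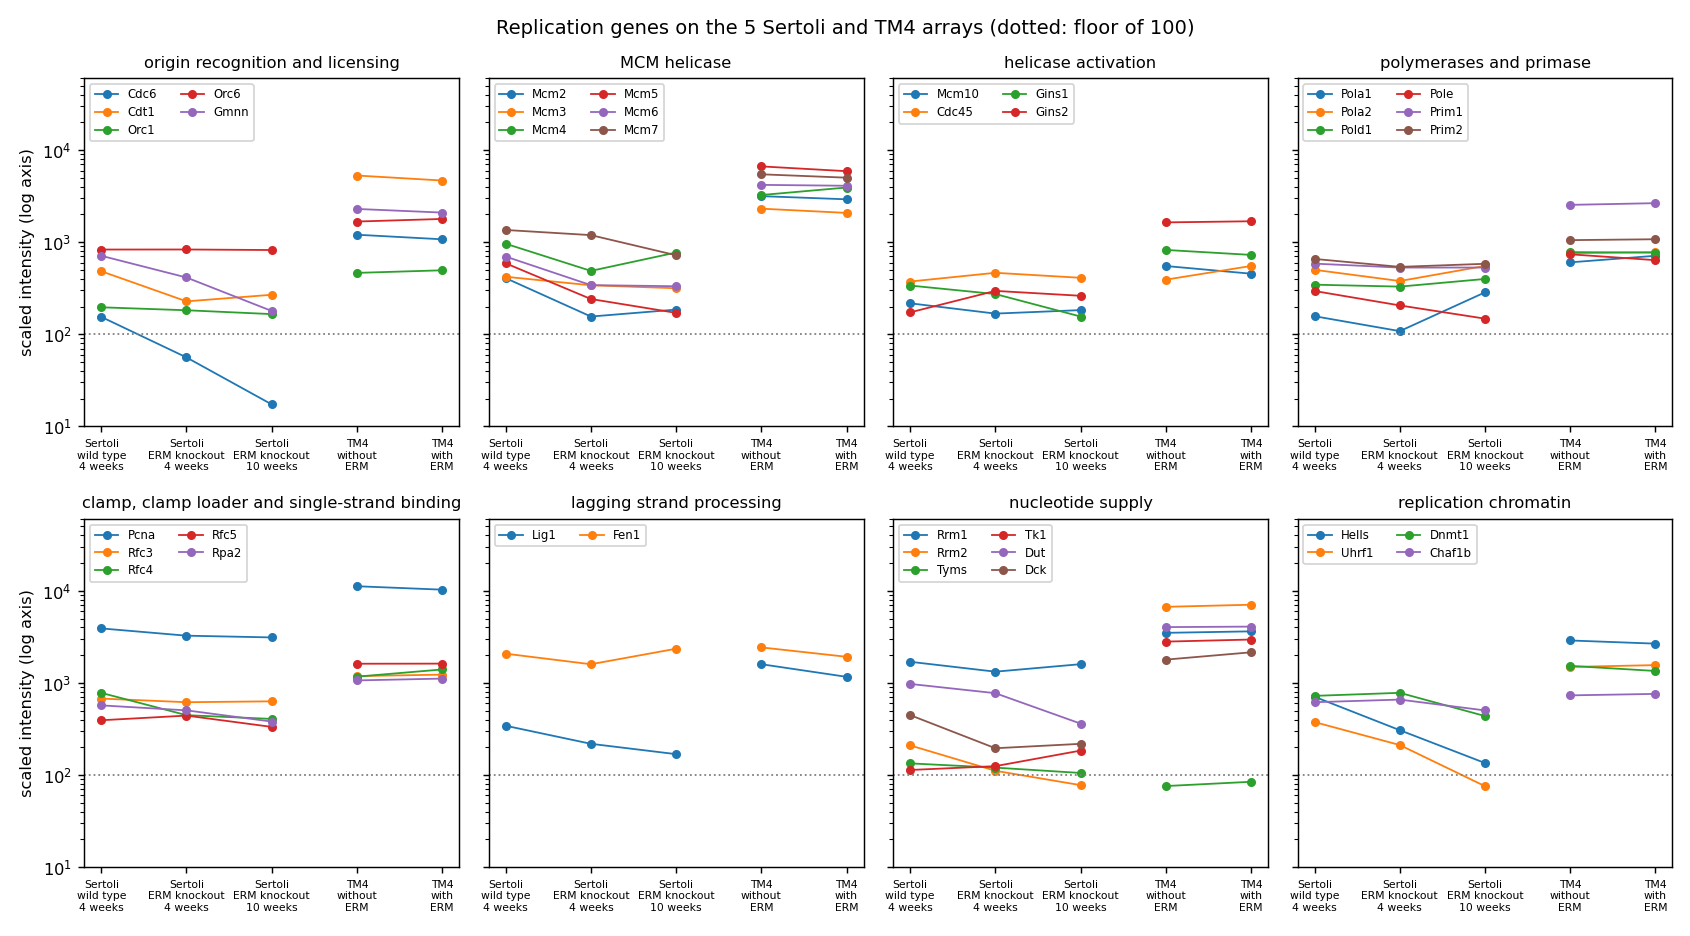
Scaled intensity on a log axis for the 38 members with a probe set on the 5 Sertoli and TM4 arrays, 1 panel for each role, with the floor of 100 dotted. Each point is 1 array, so no error bar can be drawn, and lines only join the points of a gene within a cell source. MCM genes lay between 407 and 1357 on the wild-type Sertoli array and between 2079 and 6653 on the TM4 arrays.

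Among the origin factors, Cdt1, Gmnn and Cdc6 were lower on the Sertoli arrays labelled knockout by the brightest probe set, and Orc1 and Orc6 differed little. Cdt1, which brings the MCM helicase to the origin, read 5297 and 4674 on the TM4 arrays and 483, 228 and 268 on the Sertoli arrays, a 2.12-fold lower level on the 4-week array labelled knockout. A second Cdt1 probe set read 207 on both 4-week Sertoli arrays, so the 2-fold difference rested on 1 probe set. Gmnn, the geminin that holds Cdt1 inactive after S phase begins, read 2296 and 2097 in TM4 and 712, 414 and 179 in Sertoli cells. It was 1.72-fold lower at 4 weeks and 3.97-fold lower at 10 weeks, so its lowest reading was on the 10-week array. Cdc6, the ATPase that loads MCM with Orc1, read 1205 and 1075 in TM4 and 154 on the wild-type Sertoli array. It was below the floor on both arrays labelled knockout, which sets a difference of at least 1.54-fold at each age. Orc6, a subunit of the recognition complex, read 1675 and 1788 in TM4 and 832, 833 and 822 in Sertoli cells, with a log2 ratio of 0.00 at 4 weeks. Orc1 read 464 and 495 in TM4 and 196, 182 and 166 in Sertoli cells, a difference of -0.11 on the log2 scale at 4 weeks.

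All 6 subunits of the MCM helicase, the ring that unwinds DNA at the fork, were below 0 in both Sertoli comparisons, with median log2 ratios of -1.01 at 4 weeks and -0.99 at 10 weeks. Mcm2 read 3163 and 2922 on the TM4 arrays and 407, 156 and 185 on the Sertoli arrays, and was 2.61-fold lower at 4 weeks and 2.20-fold lower at 10 weeks. Mcm5 read 6653 and 5903 in TM4 and 590, 241 and 171 in Sertoli cells, and was 2.44-fold and 3.45-fold lower. Mcm6 read 4192 and 4099 in TM4 and 698, 342 and 332 in Sertoli cells, and was 2.04-fold and 2.10-fold lower. For each of these 3 subunits the wild-type Sertoli array was the highest of the Sertoli arrays and the TM4 arrays were far above it. Their other probe sets were below 0 too but did not reach 2-fold at 4 weeks, with log2 ratios of -0.88 for Mcm2, -0.54 for Mcm5 and -0.84 for Mcm6. Mcm4 read 3251 and 3924 in TM4 and 962, 488 and 772 in Sertoli cells, just short of 2-fold lower at 4 weeks (1.97-fold) and 1.25-fold lower at 10 weeks. Mcm7, with 1357, 1193 and 721 in Sertoli cells, was lower by 1.14-fold at 4 weeks and by 1.88-fold at 10 weeks. Mcm3, with 421, 340 and 316, was lower by 1.24-fold and 1.33-fold. By the brightest probe set Mcm2 and Mcm5 were thus the lowest at 4 weeks and Mcm3 and Mcm7 the nearest to wild type, but the probe sets of Mcm7 ranged from -0.88 to 0.27.

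The factors that turn the loaded helicase on had no shared direction, with a median of 0.00 at 4 weeks over 4 genes. Gins2, a GINS subunit, read 1640 and 1687 in TM4 and 173, 296 and 262 in Sertoli cells, which was 1.71-fold higher on the 4-week array labelled knockout. Its second probe set pointed the other way, at -0.21 on the log2 scale, so no direction is given for Gins2. Cdc45, which rides on the helicase with GINS, read 392 and 552 in TM4 and 374, 465 and 410 in Sertoli cells. Its second probe set gave a log2 ratio of -0.45 at 4 weeks where this one gave 0.31, so Cdc45 had no settled direction either. Gins1 read 824 and 728 in TM4 and 338, 273 and 156 in Sertoli cells, and was 1.24-fold lower at 4 weeks and 2.17-fold lower at 10 weeks. Mcm10, which helps to start unwinding, read 551 and 455 in TM4 and 217, 168 and 183 in Sertoli cells, less than 2-fold apart on the Sertoli arrays.

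The polymerase genes were less different than the MCM genes. All 6 were below 0 at 4 weeks with a median of -0.35, yet none was 2-fold lower, and at 10 weeks the median was 0.00 with 3 above and 3 below. Pola1, the catalytic subunit of polymerase alpha, read 604 and 712 in TM4 and 157, 108 and 285 in Sertoli cells. It was 2.64-fold higher on the array labelled knockout at 10 weeks than on that at 4 weeks, the only member 2-fold higher between the ages, and all of its Sertoli readings were within 3 times the floor. Pole, the catalytic subunit of the leading strand polymerase, read 739 and 638 in TM4 and 295, 206 and 148 in Sertoli cells, and was just short of 2-fold lower at 10 weeks (1.996-fold). Prim1, the small primase subunit and the brightest of the group in TM4 cells, read 2542 and 2653 there and 585, 530 and 531 in Sertoli cells. Pold1, of polymerase delta, was the least different at 4 weeks, reading 346, 329 and 399 in Sertoli cells and 780 and 770 in TM4. Pola2 and Prim2 stayed between 379 and 658 on the Sertoli arrays.

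The clamp and its loader showed small differences between the Sertoli arrays. Pcna, the sliding clamp and the brightest member on the TM4 and Sertoli arrays, read 11206 and 10287 in TM4 and 3904, 3255 and 3117 in Sertoli cells, 1.20-fold and 1.25-fold lower at the 2 ages. Rfc4, a clamp loader subunit, read 1169 and 1398 in TM4 and 779, 446 and 406 in Sertoli cells, and was 1.75-fold and 1.92-fold lower. The other loader subunits Rfc3 and Rfc5 did not share that difference: Rfc3 read 676, 617 and 631 on the Sertoli arrays. Rfc5 read 393, 441 and 333 on them. Rpa2, of the complex that coats single-stranded DNA, read 570, 503 and 380 in Sertoli cells and 1064 and 1113 in TM4. Of the lagging strand enzymes, Lig1, the ligase that seals Okazaki fragments, read 1595 and 1164 in TM4 and 342, 218 and 168 in Sertoli cells. It was 1.57-fold lower at 4 weeks and 2.03-fold lower at 10 weeks, while Fen1, the flap nuclease, read 2075, 1594 and 2349 in Sertoli cells and 2428 and 1921 in TM4 and kept no order by label.

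Enzymes of nucleotide supply differed from each other. Dck, the salvage kinase for deoxycytidine, read 1789 and 2148 in TM4 and 447, 195 and 218 in Sertoli cells, and was 2.29-fold lower at 4 weeks and 2.05-fold lower at 10 weeks. Its other probe sets gave log2 ratios of -0.99 and -1.02 at 4 weeks, so all of its probe sets lay near or past 2-fold. Dut, which keeps uracil out of DNA, read 4034 and 4085 in TM4 and 974, 773 and 361 in Sertoli cells, and was 2.14-fold lower at 10 weeks than at 4 weeks between the arrays labelled knockout. Rrm2, the S phase subunit of ribonucleotide reductase, read 6696 and 7058 in TM4 and 209, 111 and 77.6 in Sertoli cells, and was 1.89-fold lower at 4 weeks and at least 2.09-fold lower at 10 weeks. Both other Rrm2 probe sets were near or below the floor on all Sertoli arrays, so these ratios come from dim readings. Rrm1, the large subunit, which is present through the cycle, read 3495 and 3627 in TM4 and 1695, 1324 and 1596 in Sertoli cells, within 1.28-fold. Tk1, the thymidine kinase of S phase, read 2806 and 2956 in TM4 but 113, 125 and 184 in Sertoli cells, so that it was near the floor in all 3 and had the least difference of the group at 4 weeks. Tyms, thymidylate synthase, was dim on every array, at 75.8 and 84.4 in TM4 and 134, 120 and 105 in Sertoli cells, and its probe sets never read above 204 in TM4.

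The genes that copy chromatin marks behind the fork were the lowest group at 10 weeks, with a median log2 ratio of -1.32 over 4 genes. Hells, a chromatin remodeller needed for DNA methylation, read 2888 and 2668 in TM4 and 707, 307 and 135 in Sertoli cells. It was 2.30-fold lower at 4 weeks and 5.24-fold lower at 10 weeks, but a second probe set read 329, 296 and 343 on the same arrays and did not follow. Uhrf1, which reads hemimethylated DNA and recruits Dnmt1, read 1490 and 1560 in TM4 and 375, 211 and 75.6 in Sertoli cells, and was 1.78-fold lower at 4 weeks and at least 3.75-fold lower at 10 weeks. Its second probe set was dimmer, with log2 ratios of 0.14 at 4 weeks and a bound of -0.38 at 10 weeks. Dnmt1, the maintenance methyltransferase, read 1530 and 1347 in TM4 and 723, 780 and 436 in Sertoli cells, and was 1.66-fold lower at 10 weeks only. Chaf1b, a subunit of the histone chaperone CAF-1, read 732 and 760 in TM4 and 617, 659 and 502 in Sertoli cells, the least different of the group at 4 weeks.

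Between the arrays labelled knockout at 10 and at 4 weeks, 4 of 37 members were at least 2-fold lower at 10 weeks (10.8%, against 3.51% of all genes) and 1 was higher (2.70%, against 4.19%). The 4 were Dut, Hells, Uhrf1 and Gmnn, and the one that was higher was Pola1. The median was -0.14 against -0.03 over all genes, and it was -0.07 for the MCM genes and -0.96 for the chromatin genes. No wild-type array at 10 weeks was analysed here, and this comparison shares its arrays with the others.

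**Figure D2:**
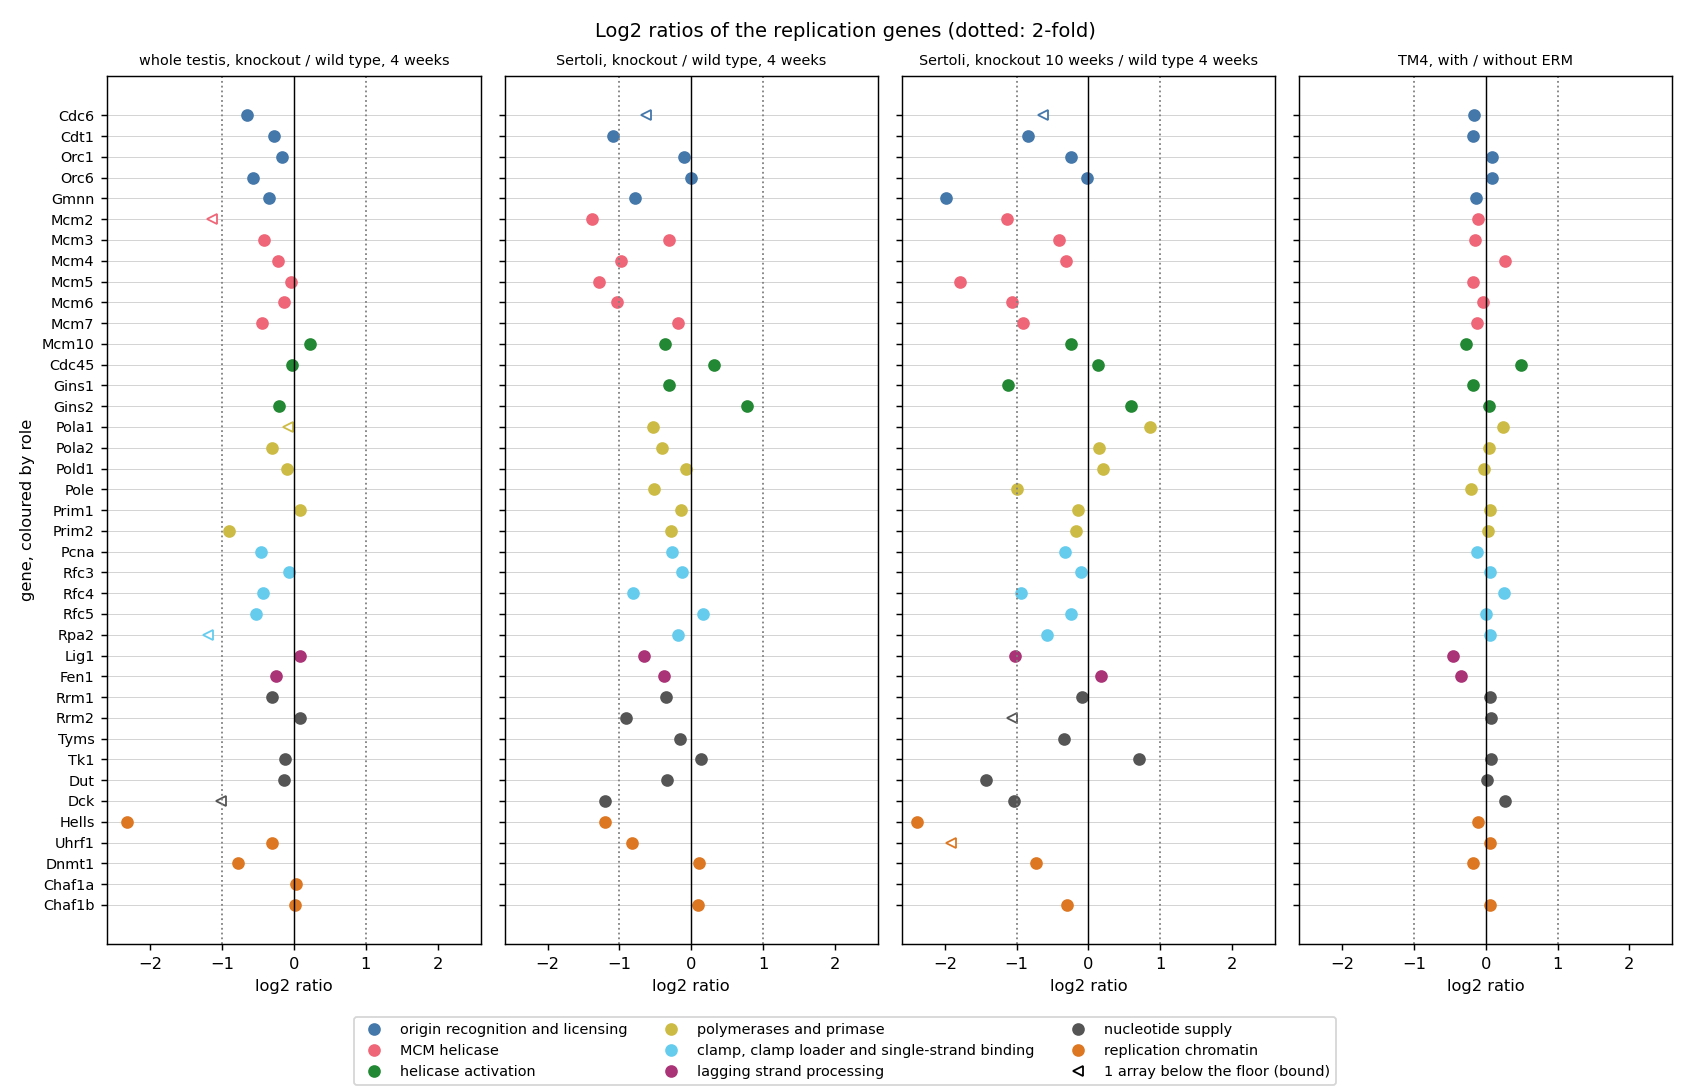
Log2 ratios of the 39 members in 4 comparisons, coloured by role, with dotted lines at 2-fold and open triangles where 1 array was below the floor, so that the ratio is a bound. Each point is the brightest probe set on 1 pair of arrays. Points lie mostly left of 0 in testis and in both Sertoli comparisons and around 0 in TM4 cells, where the range was -0.45 to 0.49.

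In whole testis at 4 weeks, 30 of 36 members were lower on the array labelled knockout, with a median log2 ratio of -0.26 against -0.01 over all 7515 genes with a ratio. At least 2-fold lower were 4 members, Hells, Rpa2, Mcm2 and Dck (11.1%, against 0.852% of all genes), and none was higher by that much (0.532% of all genes). Hells read 574 in the wild type against 115, a 5.01-fold lower level, which was the lowest ratio of any gene on the testis table. Rpa2 read 228 and then 91.6, Mcm2 read 220 and then 73.7, and Dck read 203 and then 95.3. All of these second readings lay below the floor, so the differences are bounds of at least 2.28-fold, 2.20-fold and 2.03-fold between dim values, and with a floor at 0.4 of the trimmed mean only Hells kept its call. In all, 32 of the 36 members were at or above the floor on both testis arrays.

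Some of the brighter replication genes of the testis differed little, while others, such as Pcna, Rfc5 and Mcm7, were lower by less than 2-fold. Cdc45, the brightest, read 2478 in the wild type against 2427, and Chaf1a, the large CAF-1 subunit, read 1362 and 1385. Mcm5 read 1967 and 1916 by its brightest probe set, while its second probe set read 1012 and 482, a log2 ratio of -1.07, so its probe sets disagreed. The same held for Tk1, with 861 and 788 by one and 292 and 123 by the other. The clamp group was lower throughout, 5 of 5 with a median of -0.46: Pcna read 990 and 719, a 1.38-fold lower level. Rfc5 read 721 and 498, and Rfc3, the least different of the group, read 500.1 and 475. All 5 origin factors were below 0, with a median of -0.35 and Cdc6 the lowest at 178 and 113, 1.58-fold apart. Of them Cdt1 was the brightest, at 1033 and 854, and Orc1 was the least different, at 314 and 279. All 6 MCM genes were below 0 as well, with a median of -0.32, and Mcm7 read 871 and 642. Polymerase genes had a median of -0.09, from Prim2, with 228 and 121 (1.88-fold lower), to Prim1, with 374 and 395. Pola2 was the brightest of them at 1607 and 1306. Rrm1 read 873 and 705 and Rrm2 210 and 221, so the reductase subunits differed by less than 1.3 times. Dnmt1 read 421 and 246, 1.71-fold lower, and Chaf1b, the least different of the chromatin group, read 609 and 613. Lig1 read 306 and 325, and Fen1 190 and 160. Mcm10 was the member highest on the array labelled knockout, at 528 against 453.

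Between the TM4 arrays no member of 37 differed 2-fold, against 0.421% of all genes lower and 0.303% higher on the array labelled with ERM. The brightest Etv5 probe set, the gene of ERM itself, read 405 without and 473 with ERM, and the others read 187 and 211, and 314 and 475. None of them was 2-fold apart, so a large excess of Etv5 was not measured on the array labelled with ERM. Whether they detect an introduced copy was not tested, and directions between the TM4 arrays rest on the labels. The median was 0.02 against 0.00 over all genes, with 17 below 0 and 20 above. The largest differences were in Cdc45, 1.41-fold higher with ERM, and Lig1, 1.37-fold lower. A second Cdc45 probe set read 585 and 609, a log2 ratio of 0.06, so the first was not repeated. The dimmest Mcm5 probe set read 371 without ERM and was below the floor with it, a bound of -1.89 on the log2 scale, while the 2 brighter ones gave -0.17 and -0.26. Nucleotide supply genes with a ratio were all above 0, by at most 0.26, and the lagging strand genes Lig1 and Fen1 were both below 0.

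Set against wild-type Sertoli cells, TM4 cells without ERM had 29 of 38 members at least 2-fold higher (76.3%, against 16.1% of all genes) and none 2-fold lower (17.8% of all genes). The median log2 ratio was 1.72, against 0.08 over all genes. Rrm2 was 32.0-fold higher, Tk1 24.8-fold, Mcm5 11.3-fold and Cdt1 11.0-fold. Every MCM and every origin gene was past 2-fold, with medians of 2.52 and 1.69, while the clamp group had a median of 0.90 and 2 of 5 past it. Gins2 was 9.49-fold higher and Pcna 2.87-fold, whereas Chaf1b, at 1.19-fold, Fen1, at 1.17-fold, and Cdc45, at 1.05-fold, were nearly level, and Tyms was at least 1.34-fold lower. Orc6 lay just past the threshold at 2.01-fold and Rpa2 just short of it at 1.87-fold. Those near-level genes depend on the probe set: a second one for Chaf1b gave a log2 ratio of 3.16 and a second one for Cdc45 gave 1.19. The arrays of the 2 cell sources came with different scales, and as deposited the members had 19 higher and 1 lower, a median of 1.02, and a median over all genes of -0.63. On that scale Cdc45, Rfc4, Pola2, Prim2, Fen1 and Chaf1b were below 0, and 16.8% of all 2-fold genes were higher in TM4 in place of 47.4%. The 2 sources also differ as a continuous line and a primary preparation, which cannot be told apart from other differences between them. Of 13 Sertoli markers, 9 were at least 2-fold lower in TM4 cells without ERM and 3 were higher. Sox9 and Wt1, which define Sertoli cells, were below the floor there (95.1 and 97.4, against 5220 and 3802 in the wild-type preparation), while Inhbb, Amh and Gdnf were higher (3833, 651 and 525, against 318, 322 and 238).

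**Figure D3:**
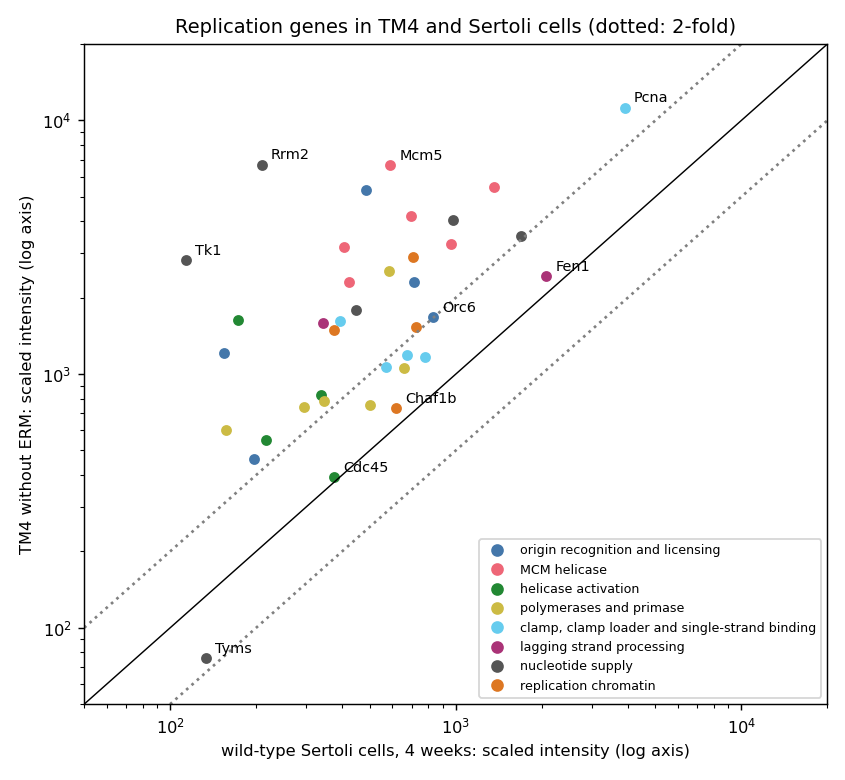
Scaled intensity of the 38 members in TM4 cells without ERM (vertical, log axis) against wild-type Sertoli cells at 4 weeks (horizontal, log axis), 1 array each, coloured by role, with the line of equality and dotted 2-fold lines. Rrm2, Tk1 and Mcm5 lie farthest above equality, while Cdc45, Fen1 and Chaf1b lie near it.

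Members with an E2F match in the promoter, such as Mcm5 and Hells printed above, had a median log2 ratio of -0.58 on the 4-week Sertoli pair, with 4 of 14 at least 2-fold lower, against -0.30 and 2 of 18 for members without one. At 10 weeks against wild type the medians were -0.79 and -0.27, and for TM4 against Sertoli cells 2.02 and 1.19. In testis the order was not the same, at -0.22 and -0.28. Members with CCGGAAG, the ETS core, lay nearer to 0: their median was -0.15 at 4 weeks with 0 of 10 at least 2-fold lower, against -0.39 and 6 of 22 without it, and -0.25 against -0.79 at 10 weeks. These are descriptions of small groups that share arrays, and Pola1, Orc1 and Rfc3 hold both kinds of match.

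For other genes of the same pathway the difference between the Sertoli arrays was not always smaller than for the members. Of 28 further fork and origin genes with a ratio, none was 2-fold apart in the 4-week Sertoli pair, with 20 below 0, 8 above and a median of -0.12. The lowest of the brighter ones were Tipin (599 against 866 in wild type), Pold3 (629 against 899), Dbf4 (402 against 574), Rpa1 (1656 against 2296) and Rnaseh2b (649 against 868). The largest ratio was upward, in the dimmer Dna2 (445 against 229), at 0.96 on the log2 scale. At 10 weeks against wild type 1 of 28, Dbf4, the activator of the Cdc7 kinase, was 2-fold lower at 218 against 574, and the median was -0.35, close to the -0.38 of the members. Between the arrays labelled knockout at 10 and 4 weeks their median was -0.21, further below 0 than the -0.14 of the members. Of the 28, 1 was 2-fold lower, Dna2 (197 against 445, with 229 in wild type), named here after its values were seen. In testis none of 21 passed 2-fold, with a median of -0.10. In TM4 against Sertoli cells 12 of 29 were higher, led by Pold2 at 5.44-fold and Dbf4 at 4.63-fold, with a median of 0.76. None of the 29 was 2-fold apart in TM4 with ERM.

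Genes of histone supply were near 0 at 4 weeks, with a median of -0.09 over 9 and none 2-fold apart. Asf1b, a histone chaperone of dividing cells, read 536 in wild-type Sertoli cells, 394 on the 4-week array labelled knockout and 109 at 10 weeks, a 4.94-fold lower level at 10 weeks and the only one of the list past 2-fold. In testis Slbp, which binds histone messenger RNA, read 728 against 1410 in wild type, 1.94-fold lower, and none of 8 passed 2-fold. Among 25 regulators of the G1 to S step, 3 cyclins were 2-fold lower in the 4-week Sertoli pair: Ccne2 (284 against 575), Ccne1 (139 against 281) and Ccnd3 (211 against 443), the last 2 dim and named after their values were seen. Ccna2, the S phase cyclin, was 1.89-fold lower at 802 against 1515, and the median of the list was -0.36. At 10 weeks Ccne2 was at least 5.75-fold lower than in wild type and Cdk6 was 2.10-fold higher. In testis none of 16 passed 2-fold, and the median was 0.12.

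In TM4 cells Mycn, a driver of cell growth, read 6978 on the array labelled without ERM and 958 on the one labelled with it, 7.29-fold lower between arrays on which Etv5 read 405 and 473, the only one of 26 G1 to S regulators past 2-fold there, while no replication member was. Against wild-type Sertoli cells, 12 of those 26 were higher in TM4 without ERM. E2f8 was higher by at least 35.1-fold, Mycn by 29.6-fold and Ccnd1, the cyclin of G1, by 9.09-fold. Mycn read 236 on the wild-type Sertoli array, so the 958 of the TM4 array with ERM was much nearer to it. The 2 that were lower were E2f6 and Rb1, the retinoblastoma protein that restrains E2F, which was 10.9-fold lower. Of 7 inhibitors of cyclin-dependent kinases, Cdkn2a was at least 10.8-fold higher and Cdkn1b 2.70-fold higher in TM4, and Cdkn1a was 2.68-fold lower. In testis Cdkn1b, the p27 protein, was 2.14-fold lower on the array labelled knockout, at 376 against 804. None of the 6 with a ratio was 2-fold apart in the 4-week Sertoli pair.

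Genes of G2 and mitosis were lower along with the replication genes, and by more at 10 weeks. In the 4-week Sertoli pair 3 of 24 were 2-fold lower with a median of -0.53, and at 10 weeks against wild type 13 of 24 with a median of -1.15. Cdc20, the activator of anaphase, read 1847 in wild type, 1099 at 4 weeks and 208 at 10 weeks on the arrays labelled knockout, and Top2a, the topoisomerase of dividing cells, read 852, 484 and 110 (8.88-fold and 7.77-fold lower at 10 weeks). In testis 2 of 20 were 2-fold lower, Mad2l1 and Top2a, with a median of -0.49. In TM4 cells none of 24 differed with ERM, and 23 of 24 were higher than in Sertoli cells.

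**Figure D4:**
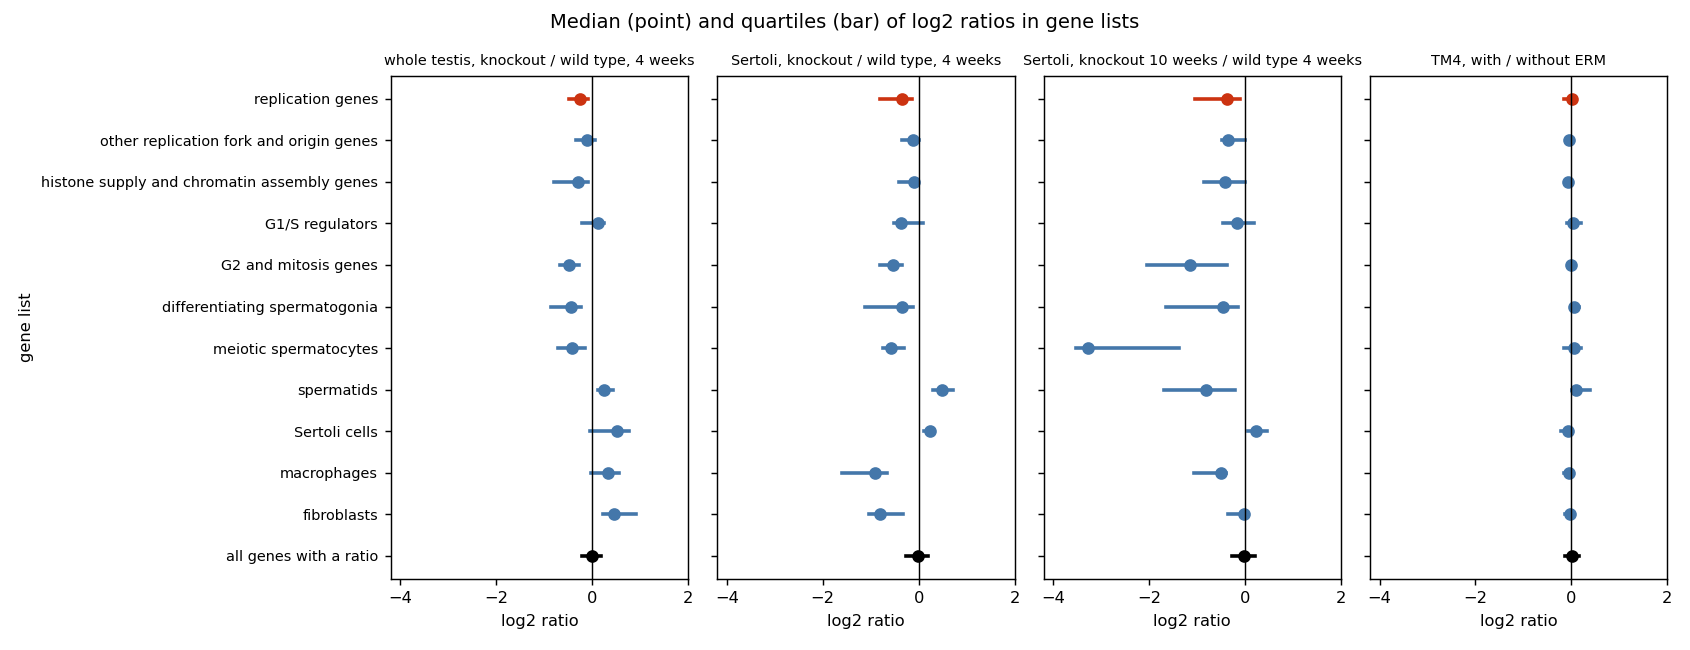
Median (point) and quartiles (bar) of log2 ratios for the replication genes, other gene lists and all genes with a ratio, in 4 comparisons of 1 array against 1 array. Spermatocyte markers lie furthest left at 10 weeks against wild type, with a median of -3.28, and the replication genes lie at -0.38.

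Markers of germ cells and of other cells differed between the same arrays. All 15 spermatocyte markers were at or above the floor in the wild-type Sertoli preparation. Their summed intensity was 32668 there, 21771 on the 4-week array labelled knockout and 3578 at 10 weeks, with 1 and then 14 of 15 at least 2-fold lower. Ddx4, a germ cell helicase, read 3497, 2124 and 268. The 10 markers of differentiating spermatogonia summed to 5352, 4256 and 3371, of which Uchl1 made up 2280, 2696 and 2060. In each comparison 3 of 9 were at least 2-fold lower, and 8 and then 7 of the 9 were below 0. Stra8, the gene of meiotic entry, read 866, 259 and 181. Markers of undifferentiated spermatogonia, 10 with Etv5 among them, summed to 6627, 8698 and 5528, with none of 9 2-fold apart in either comparison. Id4 made up 2838, 4598 and 1819 of these sums, and Bcl6b 1809, 1951 and 1586. At 4 weeks 4 of the 9 were below 0 and 5 above. The same list summed to 7384 and 7581 on the arrays of TM4, a line of Sertoli origin. The 10 macrophage markers summed to 12037, 4916 and 8613, and 4 of 9 were 2-fold lower at 4 weeks. The 7 fibroblast markers summed to 11260, 6228 and 10510, with 2 of 5 lower at 4 weeks. The 10 spermatid markers summed to 12353, 17691 and 4940, with 1 2-fold higher at 4 weeks and 4 lower at 10 weeks. The 4 Leydig cell markers summed to 2159, 3319 and 5541, with 1 and then 3 at least 2-fold higher. The 13 Sertoli markers summed to 44980, 52832 and 49947, and none was 2-fold lower at either age. In each comparison 11 of the 13 were above 0, and 1, Gdnf, was 2-fold higher at 4 weeks (480 against 238). In testis the 8 spermatocyte markers summed to 18688 and 17188, of which Ldhc made up 9229 and 9171. Of the 7 with a ratio, 6 were below 0, with a median of -0.43. The 7 markers of differentiating spermatogonia summed to 6038 and 4921 with all 7 below 0. Those of undifferentiated spermatogonia, 8 in number, summed to 3278 and 3344, with 2 of 6 below 0 and a median of 0.03. The 12 Sertoli markers summed to 13041 and 16572 with a median of 0.51. In TM4 cells spermatocyte markers summed to 2043 and 2009 and Ddx4 was below the floor without ERM. The part of any of these lists in the replication results was not tested.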

How the data were processed

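The authors deposited intensity readings from 7 Affymetrix arrays, 2 of testis (12488 probe sets) and 5 of Sertoli and TM4 cells (45101 probe sets). The sources used here do not state the software or scaling, and the readings were treated as linear. Deposited trimmed means, between the 2nd and 98th percentiles, ran from 183 to 477, and each array was scaled to 500. Readings below 100, or 0.2 of that mean, were set to this floor before log2 ratios were taken. The brightest probe set naming a single gene stood for that gene. Counts and medians over all genes stand in place of a test, since each group had 1 array and their number limits the precision. Members and lists were chosen with earlier results of these data known. Values on every array were given for members 2-fold apart in testis, Sertoli or TM4 cells and for the brightest and the least different member of each role, and of other lists up to 5 genes by size of ratio with a reading of at least 500. A few further genes were named after their values were seen. A promoter stretch was shown for the lowest member of a role with an E2F match, and matches past 30 bases after the start were left out once the data had been seen. The alternatives compared were unscaled arrays, centred ratios, quantile normalization, a floor of 0.1 or of 0.4, and averaging the probe sets of a gene. Another dropped probe sets with a suffix letter (a, f, g, i, r, s or x) in their name. The steps were tested on simulated data. Python 3.11.15, numpy 2.4.6, pandas 2.3.3 and matplotlib 3.10.9 were used.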

Additional observations from a re-analysis of the deposited data

How the results depend on the processing

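No paired analysis was possible because each group had 1 array. Over 7 other settings, 115 of 126 counts and medians of replication genes were alike and no 2-fold difference was reversed. Alike did not mean equal: counts could move by a limited factor, and medians by less than the spread between probe sets. Several of the counts were 0, which left little room for them to move. The TM4 median with against without ERM, near 0, was -0.02 with the mean over probe sets. Among single members 1391 ratios were alike, 67 differed in size, and 45 lost and 11 gained a 2-fold call. With a floor at 0.4 of the trimmed mean, members at least 2-fold lower went from 4 to 1 in testis, from 11 to 7 at 10 weeks against wild type, and from 4 to 2 between the ages, where the 1 higher member went to 0. The testis calls of Mcm2, Rpa2 and Dck were the ones lost, since their second readings were below the floor. With the mean over probe sets, 6 became 2 in the 4-week Sertoli pair (Mcm2 and Dck kept the call) and 4 became 2 between the ages. Without probe sets that carry a suffix letter, 6 became 2 in the 4-week pair and 11 became 7 at 10 weeks. With the values as deposited, TM4 against Sertoli cells gave 1 lower and 19 higher members and a median of 1.02. The cause was not tested beyond what these settings do by construction. Dim readings limit Cdc6, Rrm2, Tk1, Tyms and Pola1 in Sertoli cells.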
